A study of Mus musculus with 10 samples.

Results

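The 10 genes described here encode the 3 TGF-beta ligands (Tgfb1, Tgfb2 and Tgfb3), their receptors and co-receptors (Tgfbr1, Tgfbr2, Tgfbr3 and Eng) and 3 latent binding proteins (Ltbp1, Ltbp3 and Ltbp4). They were selected by symbol from the 56832 genes of the deposited count table. The set was proposed with the measured GFP+ against GFP- difference of these libraries known, so their levels and differences in that contrast are given as a description, with no p-value. Counts came from cells labelled cardiomyocytes, taken from 5 mice of the Sprr1a-GFP genotype, whose green fluorescent protein reports Sprr1a, a small proline-rich protein gene. How the reporter allele was built is not given in the sources used here, and all library titles carry the tag Hetz.

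Every mouse had a myocardial infarction at 12 weeks of age, and no uninjured heart was among the samples. Cells were freed from the perfused heart with enzyme 5 days later and sorted by flow cytometry. GFP+ cells are labelled border zone cardiomyocytes, those next to the infarct, and GFP- cells are labelled remote zone cardiomyocytes. Each mouse gave 1 library of each kind, so there were 5 pairs in 10 libraries. The titles of the GFP+ libraries join a DAPI-negative and a DAPI-positive fraction, whereas those of the GFP- libraries name only a DAPI-negative one. DAPI enters cells with a leaky membrane, and GFP status and this gate cannot be told apart. The mice carry identifiers of 2 series, 17C (17C1 and 17C2) and 21A (21A4, 21A5 and 21A7), whose titles are worded differently.

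TGF-beta ligands are secreted as inactive dimers held by their own propeptide. Latent binding proteins join that complex and tether it to fibrillin and fibronectin in the matrix, from which integrins, proteases and thrombospondin can release the ligand. Free ligand binds the kinase receptor encoded by Tgfbr2, which recruits and phosphorylates the one encoded by Tgfbr1, and SMAD proteins carry the signal to the nucleus. After infarction the pathway is known for its part in ending inflammation and in the fibroblast response that builds the scar.

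Total counts ranged from 12244373 to 38879965 per library. Mitochondrially encoded genes took 9.2% to 61.9% of the counts in GFP- libraries and 35.7% to 91.2% in GFP+ libraries, which left 3417972 to 16918067 other counts. Both ends of that share belonged to mouse 21A7 (9.2% in GFP-, 91.2% in GFP+). Sprr1a, the gene behind the sort, had 1452 to 6903 counts in GFP+ and 10 to 406 in GFP- libraries, and its groups did not overlap. The 12 cardiomyocyte markers (sarcomere and calcium-handling genes such as Myh6, Tnnt2 and Ryr2) were detected in every library, with a summed level of 12129 to 46953 CPM (counts scaled to the library's size) in GFP+ and 4549 to 56190 CPM in GFP- libraries. The lowest value was again that of the GFP- library of 21A7.

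Upstream sequence was read for the ligand that was higher in every mouse (Tgfb2), for another ligand as a comparison (Tgfb1) and for the co-receptor and the latent binding protein that were lower in every mouse and followed each other most closely (Eng and Ltbp4). RefSeq start-site windows on GRCm38.p6 were found for 8 of the 10 members (Eng, Ltbp1, Ltbp3, Ltbp4, Tgfb1, Tgfb2, Tgfbr1 and Tgfbr2). The counts were made on GRCm39, so these positions describe the earlier build only. The 100 bases before the annotated start (the first listed one for Ltbp4) are printed from 5′ to 3′ on the gene's strand, with motif matches in capitals.
Tgfb2, minus strand, chr1:186705990-186706089: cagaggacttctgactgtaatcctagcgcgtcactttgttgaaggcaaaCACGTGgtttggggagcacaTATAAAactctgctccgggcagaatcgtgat
Tgfb1, plus strand, chr7:25686902-25687001: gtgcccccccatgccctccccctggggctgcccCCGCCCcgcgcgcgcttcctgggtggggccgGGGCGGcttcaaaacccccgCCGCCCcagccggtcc
Eng, plus strand, chr2:32646495-32646594: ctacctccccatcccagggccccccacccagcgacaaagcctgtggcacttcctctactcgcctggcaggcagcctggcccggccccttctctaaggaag
Ltbp4, minus strand, chr7:27337613-27337712: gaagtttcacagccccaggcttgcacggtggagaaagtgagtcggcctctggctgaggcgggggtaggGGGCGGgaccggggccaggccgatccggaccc

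Motifs were searched on both strands of the 250 bases before each start: TATAAA (the core promoter box bound by TBP), CACGTG (E-box), TGACGTCA (cAMP response element), TGANTCA (AP-1 site), GGGCGG (GC box), GTCTAGAC (palindromic SMAD element) and GGAATG (TEAD site). None of these contains another. Tgfb2 held TATAAA from 31 to 26 bases and CACGTG from 51 to 46 bases before its start, and 53.6% of its 250 bases were G or C. TATAAA stood in 12.4% and CACGTG in 6.02% of all 32851 windows of that length. Tgfb1, with 75.2% G or C, held 5 matches to the GC box, a motif found in 32.7% of windows. No searched motif was in the window of Eng (62.4% G or C), and the first start of Ltbp4 (64.4%) had 3 GC boxes, 1 of them in the stretch printed. Ltbp1 held TGACGTCA from 73 to 66 bases before its start, a motif of 1.55% of windows. The AP-1, SMAD and TEAD motifs, in 6.75%, 0.167% and 12.6% of windows, were in none of the members' windows. These matches describe letters and not binding.

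Among the ligands, Tgfb2 was the one whose GFP+ and GFP- levels did not overlap. Its product has a large role in heart development and depends on a co-receptor for tight receptor binding. In the order 17C1, 17C2, 21A4, 21A5 and 21A7, Tgfb2 stood at 69.9, 74.1, 79.2, 95.1 and 32.8 CPM in GFP+ libraries, from 643, 778, 999, 2072 and 307 counts. The same mice gave 7.9, 4.49, 8.51, 16.9 and 20.9 CPM in GFP- libraries, from 132, 57, 446, 762 and 1155 counts. On this scale all 5 GFP+ libraries were above all 5 GFP- libraries, but the mouse with the lowest GFP+ value, 21A7, also had the highest GFP- value. The place of that pair depends on the scaling, since its TMM factors, which multiply the library sizes, were 0.2412 in GFP+ and 3.3090 in GFP-. Per library total, Tgfb2 stood at 7.9 CPM in GFP+ and 68.5 CPM in GFP- cells of 21A7, so the pair turned, the groups overlapped and 4 of 5 mice were higher. Per count outside mitochondrially encoded genes, a scaling chosen after seeing the data, 21A7 had 89.8 and 75.4 CPM, all 5 mice were higher and the groups did not overlap. The GFP+ level was 8.86, 16.5, 9.31, 5.64 and 1.57 times the GFP- level of the same mouse. Group means were 70.2 ± 23 and 11.7 ± 6.85 CPM (SD, n = 5). The fitted log2 fold change with the mouse as a block was 2.74 ± 0.47 (SE), and it was 3.21 without mouse 21A7.

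Mesothelial markers (Msln, Upk3b, Wt1, Upk1b, Krt19 and Lrrn4, genes of the cells that line the heart's surface) were also higher in GFP+ than in GFP- cells of every mouse. Their summed level was 102, 147, 106, 87.7 and 357 CPM in GFP+ and 0.718, 12.4, 33.9, 24.8 and 161 CPM in GFP- libraries. All 6 were detected in every GFP+ library, and Msln, Upk3b, Upk1b and Krt19 were at 0 in the GFP- library of 17C1. The GFP+ library of 21A7 had the highest mesothelial sum of all libraries and the lowest Tgfb2 level of the GFP+ libraries. The median log2 fold change of the 6 markers was 2.49 and in edgeR's quasi-likelihood test 0 passed after adjustment and 5 were higher at an unadjusted p under 0.05. The part of these cells in the Tgfb2 level was not tested. In bulk libraries, fewer cells of a type and less RNA per cell cannot be told apart.

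Tgfb1, the isoform made by most immune and stromal cells and platelets, showed a smaller difference in the other direction. Its levels were 8.7, 9.05, 12, 14.6 and 19.1 CPM in GFP+ and 7.3, 9.21, 20.2, 30.7 and 33.6 CPM in GFP- libraries. It was lower in GFP+ cells of 4 mice, and 17C2 differed by only -0.03 on the log2 scale. Per count outside mitochondrially encoded genes Tgfb1 was lower in all 5 mice, and with library totals in 3. With TMM scaling the mean per-mouse log2 ratio was -0.48 ± 0.56 (SD, n = 5), so the mean was smaller than the spread between mice. Tgfb3, an isoform known from stromal cells, ranged from 6.76 to 14.9 CPM in GFP+ and from 1.97 to 45.4 CPM in GFP- libraries. Its log2 ratio was 1.84 in 17C1 and 0.42 in 17C2 but -0.65, -2.32 and -0.54 in the 21A mice, and the mean of -0.25 ± 1.53 lay well within that spread.

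**Figure D1:**
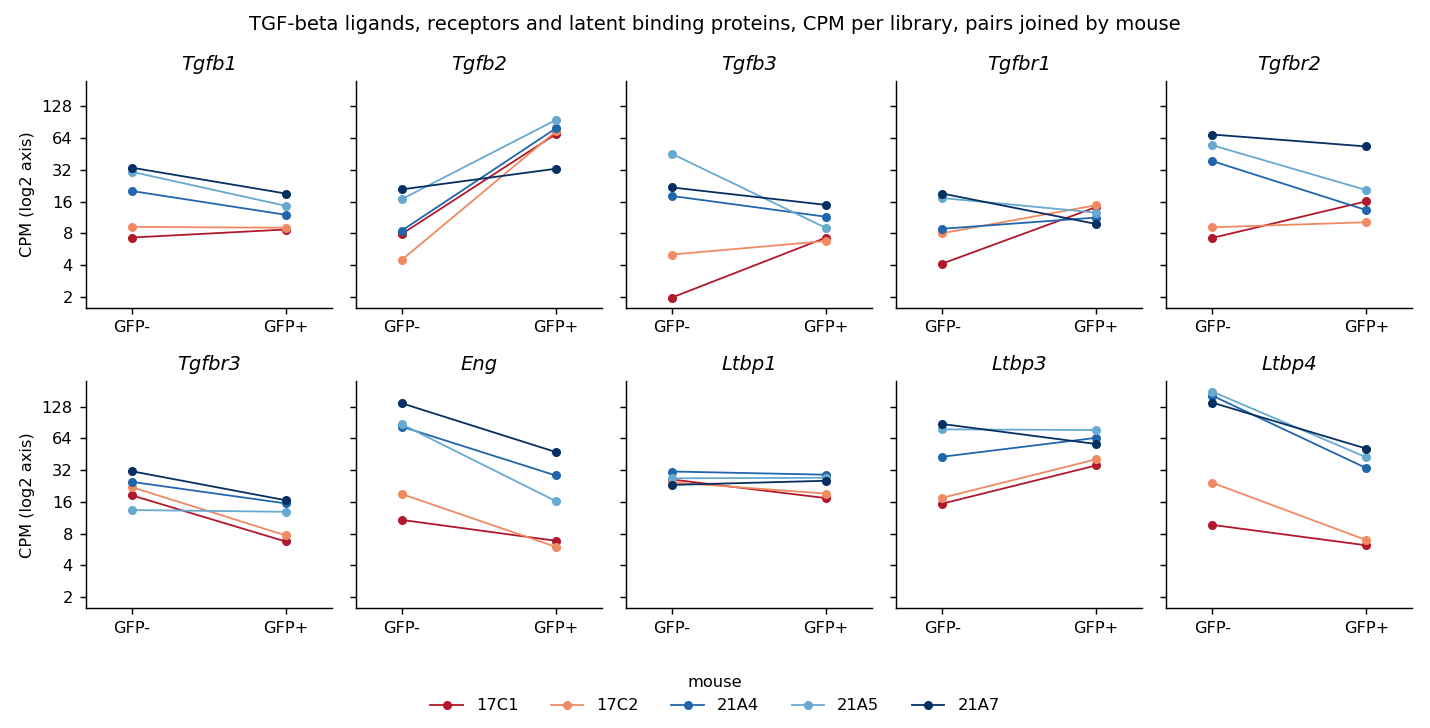
CPM of each member in every library on a log2 axis, with the GFP- and GFP+ libraries of a mouse joined by a line (red shades for 17C mice, blue shades for 21A mice). With TMM scaling Tgfb2 climbs in all 5 mice, from 4.49 to 20.9 CPM in GFP- to 32.8 to 95.1 CPM in GFP+ libraries, while Eng, Ltbp4 and Tgfbr3 descend in all 5.

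The mix of ligand transcripts, which does not depend on the library size, also differed. Tgfb2 made up 81.4%, 82.4%, 77.1%, 80.1% and 49% of the counts of the 3 ligands in GFP+ libraries, and 46%, 23.9%, 18.2%, 18.1% and 27.4% in the GFP- libraries of the same mice. The share of Tgfb2 was higher in GFP+ cells of all 5 mice, and the groups did not overlap. Their means were 74 ± 14.1% and 26.7 ± 11.5% (SD, n = 5). The GFP+ library of 21A7, with 626 ligand counts, had a 95% Wilson interval of 45.1% to 53%, and the GFP- library of 17C1, with 287 ligand counts, one of 40.3% to 51.8%. These intervals overlap, and they cover counting error only, since amplified reads without molecular identifiers are not independent molecules. Shares of counts favour long transcripts: divided by exon length, Tgfb2 made up 40.8% to 77.1% of the ligands in GFP+ and 13% to 40.2% in GFP- libraries. Tgfb1 took 14.6 ± 7.91% and 42.4 ± 5.86% of the ligand counts in GFP+ and GFP- libraries, and Tgfb3 took 11.4 ± 6.29% and 30.9 ± 14%. Both shares were lower in GFP+ cells of every mouse, but the 3 shares sum to 100%, so this restates the higher share of Tgfb2. In 17C mice the level of Tgfb3 itself was higher in GFP+ cells, and that of Tgfb1 differed by 0.25 and -0.03 on the log2 scale.

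**Figure D2:**
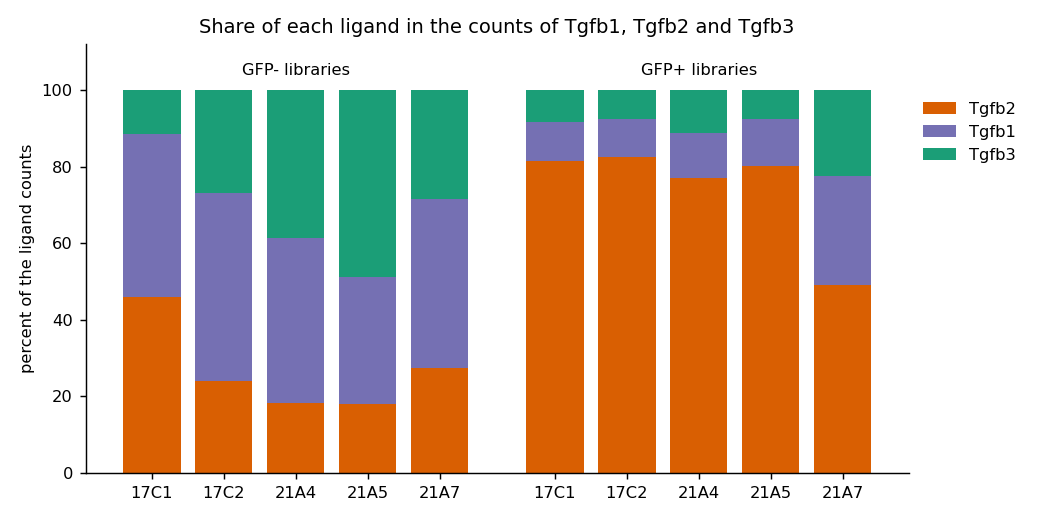
Share of Tgfb2, Tgfb1 and Tgfb3 in the summed counts of the 3 ligands (percent, stacked to 100), 1 bar per library, with GFP- libraries on the left. Tgfb2 holds 77.1% to 82.4% of the counts in 4 GFP+ libraries and 49% in that of mouse 21A7, against 18.1% to 46% in GFP- libraries.

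The kinase receptors did not share one direction. Tgfbr2, which binds free ligand first, stood at 16.1, 10.2, 13.3, 20.6 and 53.4 CPM in GFP+ and at 7.24, 9.13, 38.8, 54.8 and 69.3 CPM in GFP- libraries. It was higher in GFP+ cells of both 17C mice and lower in those of every 21A mouse, and the mean log2 ratio was -0.40 ± 1.12 (SD, n = 5). Tgfbr1, the partner that phosphorylates SMAD2 and SMAD3, was at 14.2, 14.8, 11.3, 12.6 and 9.82 CPM in GFP+ and at 4.13, 8.03, 8.84, 17.3 and 19.1 CPM in GFP- libraries. Its GFP+ values varied little (12.5 ± 2.05 CPM) compared with its GFP- values (11.5 ± 6.43 CPM). The mean log2 ratio of Tgfbr1 was 0.31 ± 1.08, with 3 mice higher and 2 lower. Tgfbr1 held 41.1 ± 16.2% of the summed Tgfbr1 and Tgfbr2 counts in GFP+ and 29.5 ± 11.8% in GFP- libraries, and 21A7 was the 1 mouse in which that share was lower in GFP+ cells.

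Both co-receptors were lower in GFP+ cells of every mouse. Eng encodes endoglin, a co-receptor best known from endothelial cells, where it works with the receptor encoded by Acvrl1. It had 63, 63, 359, 354 and 446 counts in GFP+ and 180, 241, 4340, 3943 and 7621 counts in GFP- libraries. In CPM these were 6.85, 6, 28.5, 16.3 and 47.6 against 10.8, 19, 82.8, 87.2 and 138. The groups overlapped, because both 17C mice lay far below the 21A mice on either side of the sort. Within mice the GFP- level was 1.57, 3.16, 2.91, 5.37 and 2.89 times the GFP+ level. The fitted log2 fold change of Eng was -1.57 ± 0.28 (SE). In the GENCODE M21 annotation of GRCm38, 1.51% of its exon length is shared with Fpgs on the opposite strand (12 to 236 counts per library), and the library kit does not keep strand.

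Tgfbr3 encodes betaglycan, the co-receptor that presents the Tgfb2 product to the kinase receptors. It was at 6.74, 7.71, 15.5, 12.9 and 16.6 CPM in GFP+ and at 18.5, 22.1, 24.8, 13.4 and 31.3 CPM in GFP- libraries. The pair of 21A5 differed by only -0.05 on the log2 scale, and the other pairs by -1.51 to -0.67. Its mean log2 ratio was -0.92 ± 0.60 (SD, n = 5). Eng made up 57.7 ± 11.9% of the summed counts of both co-receptors in GFP+ and 65.6 ± 22.6% in GFP- libraries, with the share lower in GFP+ cells of 4 mice.

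Latent binding proteins likewise differed among themselves. Ltbp4, which binds the latent Tgfb1 product and takes part in elastic fibre assembly, had 57, 73, 423, 924 and 481 counts in GFP+ and 162, 309, 8532, 8053 and 7734 counts in GFP- libraries. The corresponding levels were 6.2, 6.95, 33.5, 42.4 and 51.3 CPM against 9.69, 24.3, 163, 178 and 140 CPM. It was lower in GFP+ cells of every mouse, by -0.64 in 17C1 to -2.28 in 21A4 on the log2 scale, although the groups overlapped across mice. The fitted log2 fold change was -1.67 ± 0.28 (SE).

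Ltbp3, which binds all isoforms, was at 35.5, 40.6, 64.9, 76.9 and 56.7 CPM in GFP+ and at 15.4, 17.5, 42.9, 78.1 and 87.8 CPM in GFP- libraries. Its log2 ratio ranged from -0.63 (21A7) to 1.21 (17C2), with a mean of 0.47 ± 0.80. With TMM scaling Ltbp1, the first of the family to be tied to the latent complex, differed least of the 10 members. It ranged from 17.4 to 29 CPM in GFP+ and from 23.2 to 31.1 CPM in GFP- libraries. Its mean log2 ratio was -0.18 ± 0.29. With library totals, and per count outside mitochondrially encoded genes, Ltbp1 was instead lower in GFP+ cells of all 5 mice. Per count outside those genes its log2 ratio ran from -0.91 in 17C1 to -0.27 in 21A7. Of the counts of the 3 latent binding proteins, Ltbp4 took 22.9 ± 12.3% in GFP+ and 48.6 ± 20.5% in GFP- libraries and was lower in all 5 mice, while Ltbp3 took 53.3 ± 7.49% and 27.4 ± 6.18% and was higher in all 5. The share of Ltbp1 was 23.7 ± 5.22% and 23.9 ± 19%.

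**Figure D3:**
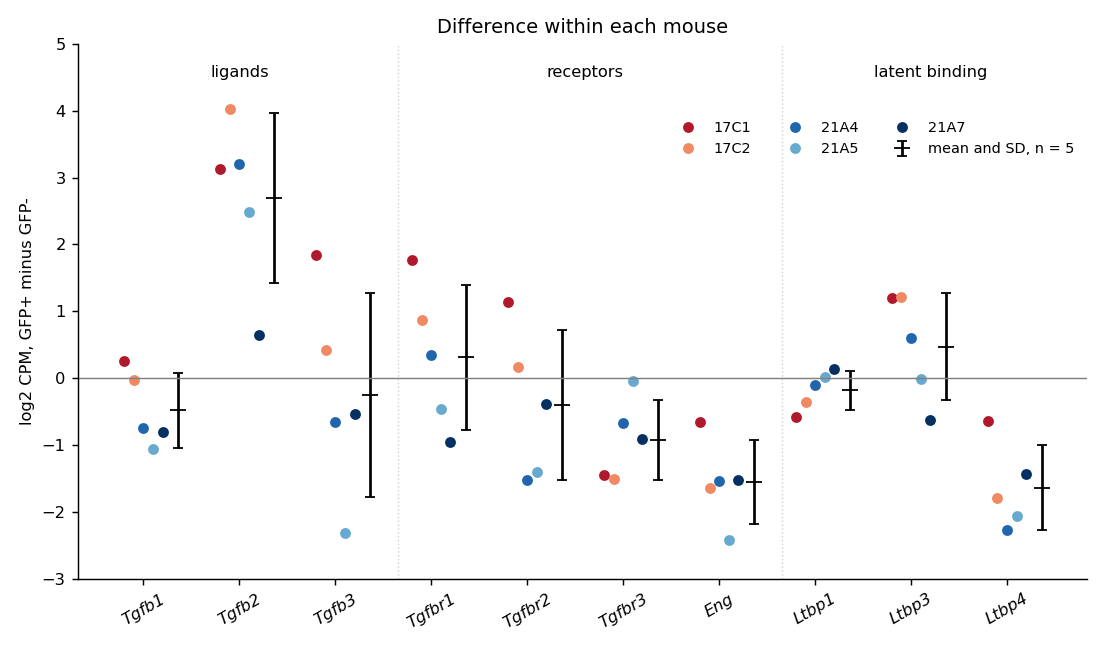
Difference in log2 CPM, GFP+ minus GFP-, within each of the 5 mice (points) with the mean and SD beside them, for each member grouped by role. With TMM scaling Tgfb2 lies above 0 in every mouse (0.65 to 4.02), Eng, Ltbp4 and Tgfbr3 lie below 0 in every mouse, and the other 6 members cross 0.

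All 10 members passed the filter on low counts. Tgfb2 was among the 83 genes that passed as higher in GFP+ cells (0.685% of the 12115 tested; edgeR's quasi-likelihood test with the mouse as a block, adjusted p under 0.05). Eng and Ltbp4 were among the 21 that passed as lower (0.173%). Over the same genes, 9.14% were higher in GFP+ cells of 5 of 5 mice, as was 1 member, and 8.02% were lower in 5 of 5, as were 3 members. Groups that did not overlap were found for 1.54% of genes with GFP+ higher (1 member) and for 0.916% with GFP+ lower (0 members). Since the members were chosen with this contrast known, nothing is read from these counts, nor from the passes in other fits that follow. With each mouse left out in turn, Tgfb2 passed only without 21A7, and Eng and Ltbp4 passed only without 17C1. Without the mouse block none of the 3 passed, with log2 fold changes of 2.58 for Tgfb2, -1.68 for Eng and -1.87 for Ltbp4, and none passed with library totals alone (1.91, -2.70 and -2.81). Tgfbr3 passed as lower with DESeq2, with the marker covariate described further on and in 17C mice alone. Tgfb1 and Tgfbr2 passed as lower in 21A mice alone, and Ltbp3 passed as higher in 17C mice alone. All these fits passed more genes than the main fit: 454 as higher and 441 as lower with DESeq2, and 530 and 359 with the covariate. They numbered 675 and 835 of 11107 in 17C mice, and 353 and 536 of 13221 in 21A mice. Of the members, 1 passed as higher and 3 as lower with DESeq2, and likewise with the covariate. In 17C mice these were 2 and 1, and in 21A mice 1 and 4.

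Levels of different members were set beside each other only per kilobase of exon (union of exons, GENCODE M21). In GFP+ libraries Tgfb2 had the highest median, 12.8 CPM per kilobase, followed by Ltbp3 (6.25), Ltbp4 (5.19), Eng (4.02), Tgfb3 (2.66), Ltbp1 (2.38), Tgfb1 (2.37), Tgfbr3 (1.98), Tgfbr2 (1.97) and Tgfbr1 (1.93). Tgfb2 was above Ltbp3 in 4 of 5 mice, by 0.98 ± 0.70 on the log2 scale. Tgfb3 over Ltbp1 (0.37 ± 0.32) and Tgfb1 over Tgfbr3 (0.50 ± 0.29) held in 5 of 5 mice, and the difference between the remaining neighbours was smaller than its SD. In GFP- libraries Ltbp4 (21.6) and Eng (20.5) stood first and did not differ beyond their spread (-0.23 ± 0.54). Tgfb3 followed at 5.36, below Eng in all 5 mice by 1.77 ± 0.67. Then came Tgfbr2 and Ltbp3 (both 4.73), Tgfb1 (4), Tgfbr3 (3.38), Ltbp1 (2.44), Tgfb2 (1.47) and Tgfbr1 (1.35). Ltbp3 was above Tgfb1 in 5 of 5 mice by 0.32 ± 0.20, and Tgfbr2 differed from Ltbp3 by -0.46 ± 0.40, below it in 4 of 5. The other neighbours differed by less than the SD. Tgfb2 thus stood first of the 10 in GFP+ and ninth in GFP- libraries.

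The 17C and 21A mice differed in cell type markers, and several members followed that split. Cardiomyocyte markers summed to 22793 to 30113 CPM in GFP+ and 48356 to 56190 CPM in GFP- libraries of 17C mice, and to 12129 to 46953 and 4549 to 36281 CPM in those of 21A mice. The mean log2 ratio of that sum was -0.99 in 17C and 0.94 in 21A mice. Summed fibroblast markers (12 genes such as Col1a1, Pdgfra and Dcn) were at 135 to 291 CPM in GFP- and 285 to 340 CPM in GFP+ libraries of 17C mice, but at 6582 to 12200 CPM in GFP- and 1780 to 5170 CPM in GFP+ libraries of 21A mice. All 12 were detected in every 21A library and 9 to 11 in the 17C libraries, where Fap was at 0. In the GFP- library of 21A7, labelled cardiomyocytes, they summed to 12200 CPM, above the 4549 CPM of its cardiomyocyte markers. In every other library the cardiomyocyte sum was the higher. These sums are not divided by exon length. Endothelial markers (12 genes such as Pecam1, Cdh5 and Kdr, all detected everywhere) summed to 75 to 111 CPM in GFP- and 53.1 to 92.9 CPM in GFP+ libraries of 17C mice, and to 560 to 654 CPM in GFP- and 170 to 338 CPM in GFP+ libraries of 21A mice. Macrophage markers ranged from 24.4 to 32.7 CPM in GFP- libraries of 17C mice and from 336 to 762 CPM in those of 21A mice, with 24.9 to 43.2 CPM and 75.8 to 349 CPM in the GFP+ libraries. Mural markers (pericytes and smooth muscle) summed to 115 to 180 CPM in GFP+ and 126 to 434 CPM in GFP- libraries. Platelet markers lay at 1.1 to 31.2 and 6.22 to 25.7 CPM. Neutrophil (0 to 9.5 and 0.12 to 11.5 CPM), lymphocyte (0 to 0.317 and 0.0181 to 0.598 CPM) and Schwann cell markers (0 to 1.6 and 0 to 1.32 CPM) were near 0. In edgeR's quasi-likelihood test of GFP+ against GFP- cells, 1 of 12 macrophage markers passed as lower, and 7 were lower at an unadjusted p under 0.05. No endothelial, fibroblast or mural marker passed, and 7 of 12, 2 of 10 and 4 of 8 tested were lower at an unadjusted p under 0.05. Eng and Ltbp4 were lower in GFP+ cells of every mouse, but these sums did not all share that direction in 17C mice. Fibroblast sums were higher in GFP+ cells of 17C1 (285 and 135 CPM) and 17C2 (340 and 291 CPM). So were macrophage sums (43.2 and 32.7 CPM, 24.9 and 24.4 CPM). The endothelial sum was higher in 17C1 (92.9 and 75 CPM) but lower in 17C2 (53.1 and 111 CPM), and mural sums were lower in both. The part of these cells in the levels of Eng and Ltbp4 was not tested.

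**Figure D4:**
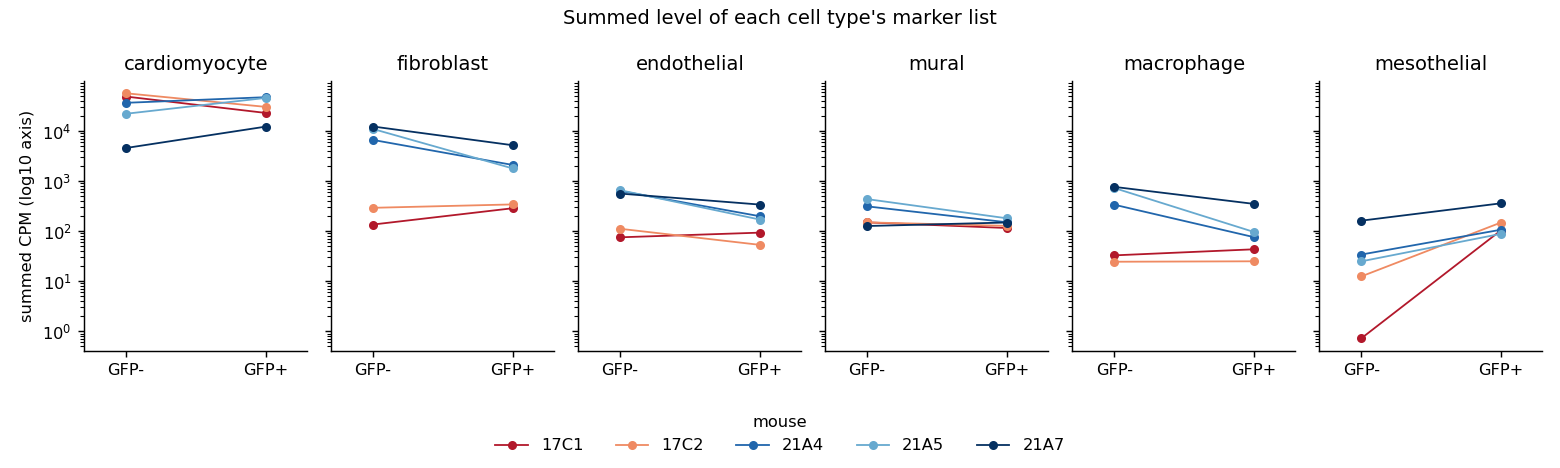
Summed CPM of 6 marker lists in every library on a log10 axis, with the libraries of a mouse joined. Fibroblast sums stay between 135 and 340 CPM in 17C mice and reach 1780 to 12200 CPM in 21A mice, and mesothelial sums are higher in GFP+ cells of all 5 mice.

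Across the 10 libraries, which share 5 mice, log2 CPM of several members followed the summed fibroblast markers: Pearson's r was 0.97 for Tgfb1, 0.93 for Tgfbr2 and Ltbp4, 0.92 for Tgfb3, 0.91 for Eng and 0.82 for Ltbp3. With the endothelial markers r was 0.97 for Ltbp4, 0.96 for Eng, 0.94 for Tgfb1, 0.90 for Tgfbr2 and 0.87 for Tgfb3, and with the macrophage markers 0.97 for Tgfb1 and Tgfbr2, 0.92 for Eng and 0.90 for Ltbp4. Tgfb2 had r of 0.03, -0.23 and -0.09 with these lists. With the summed fibroblast, endothelial, mural and macrophage markers as a covariate beside the mouse block, the log2 fold change of Tgfb2 was 3.10, that of Eng -1.12 and that of Ltbp4 -1.25. In that fit Tgfb3 was at 1.00, Tgfbr1 at 1.02, Ltbp3 at 0.93, Tgfbr2 at 0.47, Tgfb1 at -0.03, Ltbp1 at -0.38 and Tgfbr3 at -1.42. The signs of Tgfb3 and Tgfbr2 were thus opposite to those without the covariate. In 21A libraries fibroblast markers made up most of that covariate's sum. GFP- cells of 21A4 had 6582 fibroblast, 631 endothelial, 311 mural and 336 macrophage CPM. The fit therefore cannot tell the parts of these cell types apart.

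Fitted within each series, Tgfb2 had a log2 fold change of 3.58 in 17C and 2.17 in 21A mice. Eng (-1.15 and -1.81), Ltbp4 (-1.23 and -1.91) and Tgfbr3 (-1.48 and -0.52) were likewise on the same side of 0 in both series. For Tgfb3 the values were 1.15 and -1.15, for Tgfbr1 1.33 and -0.34, and for Tgfbr2 0.67 and -1.09. Ltbp3 was at 1.22 in 17C and 0.00 in 21A mice, Tgfb1 at 0.12 and -0.86, and Ltbp1 at -0.46 and 0.03. The difference between the series passed for 1 member, Tgfbr2, at -1.77 ± 0.47 (21A minus 17C, edgeR's quasi-likelihood test of the interaction, adjusted p = 0.0488). It passed for 923 genes in all (7.62%), so 1 of 10 members does not set the members apart. The series differ in their marker sums as given above, and the part of those cells in the difference cannot be told apart from that of the series.

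**Figure D5:**
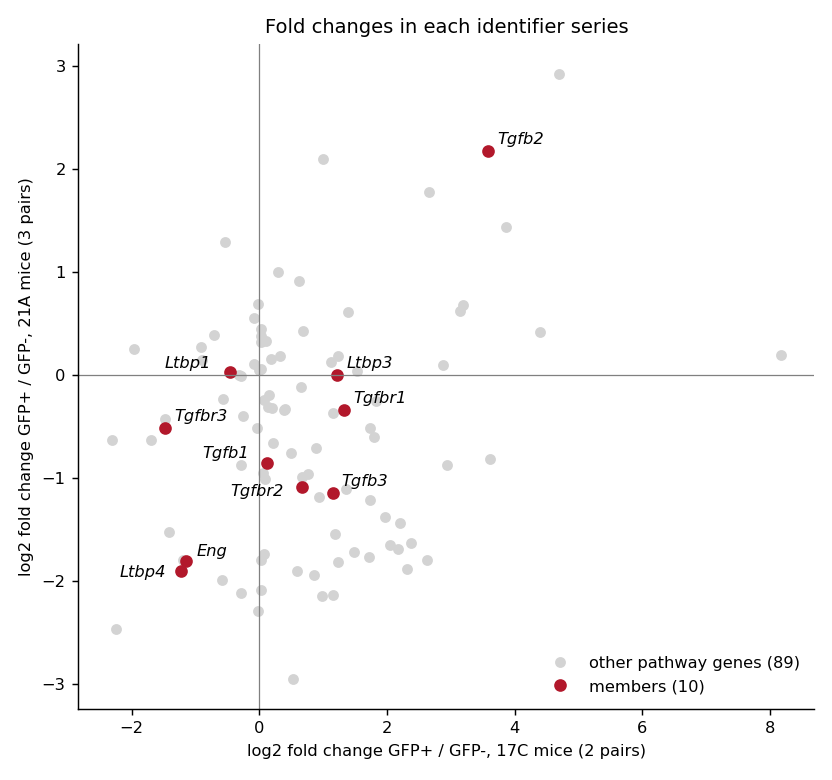
Log2 fold change (GFP+ over GFP-) in the 2 pairs of 17C mice (x axis) against that in the 3 pairs of 21A mice (y axis), for the 10 members (red, named) and 89 other pathway genes tested in both fits (grey). Of the grey points, 42 lie to the right of 0 and below it and 9 the other way round, and Tgfb2 is the 1 member above 2 on both axes.

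Other genes of the pathway were taken from 5 lists of 120 genes, of which 98 passed the filter on low counts. One of them, Gdf15, passed as higher in GFP+ cells and none as lower (edgeR's quasi-likelihood test, adjusted over all 12115 genes). At an unadjusted p under 0.05 there were 8 higher and 10 lower, and DESeq2 called 8 and 7. Over all 12115 genes these counts were 938 and 920 unadjusted with edgeR, and 454 and 441 called by DESeq2. The median log2 fold change of the 98 genes was -0.21, beside -0.04 over all genes tested. Gdf15, a distant family member secreted by stressed tissue, stood at 18.4 ± 9.54 CPM in GFP+ and 1.76 ± 1.39 CPM in GFP- libraries (SD, n = 5) and was higher in 5 of 5 mice. Its log2 fold change was 3.49 ± 0.59 (SE, edgeR adjusted p = 0.0426). Without the mouse block the adjusted p of Gdf15 was 0.107.

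Latency and activation genes had a median log2 fold change of -0.44, with 0 of 23 tested passing in either direction (2 higher and 4 lower at an unadjusted p under 0.05, edgeR). The direction of the list turned with the marker covariate: its median was then 0.87, with 6 genes passing as higher and 0 as lower. Over all 12115 genes, that fit passed 530 as higher and 359 as lower, beside 83 and 21 without the covariate. Dcn, of the latency and activation list, is itself among the covariate's markers. Without the mouse block the median was -1.05. Tgm2, a transglutaminase that crosslinks latent binding proteins into the matrix, stood at 412 ± 190 CPM in GFP+ and 93 ± 33.3 CPM in GFP- libraries and was higher in 5 of 5 mice, at a log2 fold change of 2.13 ± 0.39 (edgeR adjusted p = 0.0532). Itgb1, the beta subunit of many integrins, was at 388 ± 113 and 205 ± 51.7 CPM (0.91 ± 0.29, edgeR adjusted p = 0.197). Ltbp2, a family member that does not bind TGF-beta, was at 15.6 ± 17 and 86.6 ± 98.7 CPM (-2.31 ± 0.52, edgeR adjusted p = 0.0966). Bgn, a small proteoglycan, was at 86.9 ± 91.6 and 297 ± 292 CPM (adjusted p = 0.0845 with edgeR), and the fibronectin gene Fn1 at 537 ± 688 and 1556 ± 1695 CPM (adjusted p = 0.384). Their spread between mice was about as large as their means, and fibroblast marker sums were higher in the same GFP- libraries of 21A mice, as given above.

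None of the 18 signal transduction genes tested passed (0 higher and 3 lower at an unadjusted p under 0.05, edgeR). These 3 were the acetyltransferase genes Ep300 and Crebbp, whose products are SMAD coactivators, and Tab2, an adaptor of the kinase TAK1. Log2 fold changes were -1.05 ± 0.27 for Ep300, -1.29 ± 0.36 for Crebbp and -0.85 ± 0.26 for Tab2 (SE), with edgeR adjusted p of 0.127, 0.154 and 0.184, and each was lower in 5 of 5 mice. The most abundant genes of the list differed little: Sptbn1, a spectrin, was at 375 ± 178 and 399 ± 159 CPM, and the deubiquitinase gene Usp9x at 92 ± 17.9 and 79.3 ± 17.6 CPM. The list's median was -0.09.

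Inhibitors had a median of -0.11, and none of 14 tested passed (2 higher and 1 lower at an unadjusted p under 0.05, edgeR). With the covariate the median was 0.61, and 3 passed as higher. Bambi, a pseudoreceptor without a kinase, stood at 16.3 ± 7.69 CPM in GFP+ and 5.41 ± 3.08 CPM in GFP- libraries (log2 fold change 1.65 ± 0.34, edgeR adjusted p = 0.0765). Fstl3, a secreted activin inhibitor, was at 9.42 ± 3.4 and 2.19 ± 1.46 CPM (2.33 ± 0.68, edgeR adjusted p = 0.164). Both were higher in 5 of 5 mice. Ski, a SMAD corepressor, was lower in 5 of 5 (31.3 ± 11.5 and 52.2 ± 24.7 CPM, edgeR adjusted p = 0.211). Fstl1 and the phosphatase gene Ppm1a, the most abundant of the list, had edgeR adjusted p of 0.783 and 0.608.

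Responsive genes, those often switched on by TGF-beta, had a median of -0.33, and none of 24 tested passed (3 higher and 2 lower at an unadjusted p under 0.05, edgeR). This direction also turned with the marker covariate, to a median of 0.83 with 7 genes passing as higher and 0 as lower. More genes passed in that fit over all genes too, as given above. That covariate counts Postn, Col1a1 and Col3a1 of this list among its markers, so the fit is not independent of the list. Tsc22d1, a transcriptional regulator, was at 125 ± 35.1 CPM in GFP+ and 75.3 ± 29.3 CPM in GFP- libraries, higher in 5 of 5 mice (0.78 ± 0.21, edgeR adjusted p = 0.149). Ccn2, a matricellular protein gene, was at 196 ± 62.5 and 82.2 ± 70.8 CPM and higher in 4 of 5 (1.63 ± 0.57, edgeR adjusted p = 0.23). Postn, Col1a1 and Col3a1, which also stand in the fibroblast marker list, had log2 fold changes of -1.49 ± 0.49, -1.09 ± 0.50 and -0.86 ± 0.64 (edgeR adjusted p of 0.203, 0.35 and 0.581).

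The activin, BMP and GDF list, with 19 of 30 genes tested, had a median of -0.14, and Gdf15 was its 1 gene to pass. With the covariate the median was 0.14, and 3 passed as higher. Gdf11, a ligand close to myostatin, was at 0.86 ± 1.09 CPM in GFP+ and 1.97 ± 1.84 CPM in GFP- libraries (edgeR adjusted p = 0.339). Acvrl1, the endothelial partner of endoglin, was at 6.37 ± 5.3 and 15.8 ± 13.5 CPM (edgeR adjusted p = 0.363). The abundant BMP receptor genes Bmpr2 and Bmpr1a had log2 fold changes of -0.14 ± 0.20 and 0.22 ± 0.20.

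Latency and activation genes, inhibitors and responsive genes went different ways in the identifier series. In 17C mice alone, where 6.08% of 11107 genes passed as higher and 7.52% as lower, 7 latency and activation genes, 4 inhibitors and 8 responsive genes passed as higher and 1 responsive gene as lower. In 21A mice alone, where 2.67% of 13221 genes passed as higher and 4.05% as lower, the same lists had 1, 1 and 1 genes higher and 11, 3 and 10 lower (edgeR's quasi-likelihood test with the mouse as a block). The median log2 fold change of the latency and activation genes was 1.20 in 17C and -1.54 in 21A mice, that of the responsive genes 1.04 and -1.28, and that of the inhibitors 0.50 and -0.60. Signal transduction genes had medians of -0.01 and 0.06, with 3 passing as lower in 17C mice. The activin, BMP and GDF list had medians of 0.23 and -0.60, with 2 genes higher in 17C mice and 1 higher and 3 lower in 21A mice. The summed fibroblast markers moved the same way, with a mean log2 ratio of 0.65 in 17C and -1.84 in 21A mice. The difference between the series itself passed for 29 of the 98 pathway genes (29.6%), with 28 of them lower in 21A mice, beside 7.62% of all genes. Those 29 included 12 of 24 responsive genes and 10 of 23 latency and activation genes, but 2 of 18 signal transduction genes.

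Ccn2 and Timp1, a metalloprotease inhibitor gene, were chosen as examples after their values were seen. In 17C mice their log2 fold changes were 3.15 and 4.40, and in 21A mice 0.62 and 0.42. The interaction was -2.54 and -4.00 (edgeR adjusted p of 0.0311 and 0.0133). Col3a1 had 0.86 in 17C and -1.94 in 21A mice (interaction -2.81, edgeR adjusted p = 0.0251), and Fstl1 1.48 and -1.72 (-3.21, edgeR adjusted p = 0.0234). In contrast, Gdf15 (4.70 and 2.92) and Tgm2 (2.66 and 1.78) were higher in GFP+ cells of both series, as was Tgfb2.

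Genes whose log2 CPM followed each member most closely over the 10 libraries were sought among the 4675 tested genes whose mean level reached 10 CPM. The libraries share 5 mice, 2 series and the sort, so r is given as a description. Tgfb2 was followed by Tgm2 (r = 0.983), the steroidogenic cholesterol carrier gene Star (0.978) and Efhd2 (0.971). Star stood at 23.7 CPM in GFP+ and 2.12 CPM in GFP- libraries, and Efhd2, a calcium-binding protein gene, at 135 and 32 CPM. The closest to Eng were the transcription factor gene Foxp1 (0.985), the laminin gene Lama4 (0.984) and the endothelin-converting enzyme gene Ece1 (0.982), and to Ltbp4 Ptprb (0.988), Lama4 (0.985) and the endothelial marker Flt1 (0.977). Eng and Ltbp4 also followed each other (r = 0.96).

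Tgfb1 was followed by Lima1 (0.984), Iqgap1 (0.982) and the macrophage-rich Apoe (0.980), and Tgfbr2 by Rai14 (0.983), the fibroblast marker Pdgfra (0.981) and the macrophage marker C1qa (0.981). Tgfb1 and Tgfbr2 followed each other with r = 0.95. Tgfb3 had Emp1 (0.974) and the matrix genes Thbs2 (0.973) and Lum (0.967) beside it, and Ltbp3 had Map1a (0.972), Syk (0.965) and Dbnl (0.964). Correlations were weaker for the remaining members: Ier5 (0.934), Cebpd (0.917) and Mgat5 (0.913) for Tgfbr1, Emilin2 (0.927), Prr12 (0.906) and Hnrnpd (0.906) for Tgfbr3, and Kif13a (0.947), Tnrc6c (0.934) and R3hdm2 (0.927) for Ltbp1. Tgfb2 and Tgfbr3, the ligand and the co-receptor that presents it, had r = -0.67 over the GFP+ and GFP- libraries together. Tgfb2 was higher and Tgfbr3 lower in GFP+ cells of every mouse, so this r is not independent of that difference. A relation between the genes within either side of the sort was not tested.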

How the data were processed

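The authors deposited 1 table of whole-number read counts per gene for 10 libraries, not normalized. Per the labels' protocols, cDNA was pre-amplified with a SMARTer kit before Nextera XT library preparation, which keeps no strand. The build was GRCm39, with STAR 2.7.9a and featureCounts, Subread 2.0.1 and fastp 0.23.1 among the tools listed, per the submitters' processing notes. Not given in the sources used here are the annotation release, the strand setting and how multi-mapping reads were treated. Reads of overlapping genes on opposite strands therefore cannot be told apart, and in the GENCODE M21 annotation (GRCm38) loci opposite the exons of Tgfb2 and Tgfb3 had 0 to 3 counts and Gm43422, on the strand of Tgfbr3, 0 to 7.

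From the deposited counts, edgeR 4.0.16 in R 4.3.3 fitted all 12115 genes that passed filterByExpr (quasi-likelihood F-test, TMM factors, mouse as a block, Benjamini-Hochberg adjusted p under 0.05). A fold change's SE was taken as its size over the root of its F statistic. CPM uses TMM-scaled library sizes, and per-mouse log2 ratios a prior count of 2. Pairs come from the animal identifier. Across genes, deviations from the group mean correlated between the 2 libraries of a mouse at 0.292 for 17C1, 0.397 for 17C2, 0.161 for 21A4, 0.074 for 21A5 and 0.637 for 21A7. Alternatives were DESeq2 1.42.0, limma 3.58.1 (voom), other scalings and filters, no block, a marker covariate, each series alone and each mouse left out.

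The members and lists were chosen with earlier results of these data known. The named genes are the members and, from each pathway list, the genes that passed (if fewer than 3, those with the smallest adjusted p up to 3) and the 2 of highest mean CPM. The 3 genes with the highest Pearson correlation with each member were added, among tested genes with a mean of at least 10 CPM, leaving out gene models, Rik clones and pseudogenes. Promoter windows were read from a RefSeq table on GRCm38.p6, and coordinates of the counted genes were not used here.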

Additional observations from a re-analysis of the deposited data

Results flagged for a closer look

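The log2 CPM of Tgfb2 in the GFP+ library of mouse 21A7, 5.04, lay apart from the other 4 GFP+ libraries, the nearest of which was at 6.13. The gap was 0.711 of the range of the group, just above the 95% critical value of 0.71 for 5 samples. Of 30 groups of 5 values examined, this was the 1 that passed, and chance flags about 1 in 20 groups. The same library had 91.2% of its counts in mitochondrially encoded genes and the highest mesothelial marker sum (357 CPM). Their part in the Tgfb2 level was not tested.

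Tgfbr2 differed between the identifier series in its GFP+ against GFP- difference. Its log2 fold change was 0.67 in 17C mice and -1.09 in 21A mice, and the interaction was -1.77 ± 0.47 (SE, edgeR's quasi-likelihood test, adjusted p = 0.0488). All 3 of the 21A mice were lower and both 17C mice were higher in GFP+ cells. Over all genes tested, 923 (7.62%) passed this interaction, beside 1 of the 10 members, so this pass does not set the members apart. The adjusted p of Tgfbr2 lay just under the threshold of 0.05. The series also differ in their cell type marker sums, whose part cannot be told apart from that of the series.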

How the results depend on the processing

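Of 16 alternatives, 4 members kept their sign in all: Tgfb2 (log2 fold change 1.91 to 3.58), Tgfbr3 (-1.99 to -0.52), Eng (-2.70 to -1.12) and Ltbp4 (-2.81 to -1.23). Scaling to library totals alone moved the median of all genes from -0.04 to -1.15; relative to that median, Tgfb2 was at 3.06, Eng at -1.55 and Ltbp4 at -1.66, and none of the members passed. In mouse 21A7 alone, the log2 ratio of Tgfb2 was -3.12 with library totals and 0.25 per count outside mitochondrially encoded genes, beside 0.65; this check was chosen after seeing the data. Library totals alone also turned the fitted log2 fold change of Tgfbr1 to -0.69 and that of Ltbp3 to -0.51, or 0.46 and 0.64 relative to the median. Without 17C1, Tgfbr1 was at -0.05, and without 21A5, Tgfb3 was at 0.19. Genes that passed as higher (83) and lower (21) numbered 10 and 0 without the mouse block (582 and 409 at an unadjusted p under 0.05, edgeR), 454 and 441 with DESeq2, 247 and 197 with limma voom, 5 and 28 with library totals, 360 and 458 without a filter, 90 and 32 with the stricter filter, 530 and 359 with the marker covariate, 675 and 835 in 17C mice and 353 and 536 in 21A mice. With 1 mouse left out they ranged from 0 to 99 and from 0 to 74, and without 17C2 both were 0 (695 and 797 unadjusted, edgeR). Pathway genes that passed as higher (1) and lower (0) numbered 0 and 0 without the block (7 and 1 unadjusted, edgeR), 8 and 7 with DESeq2, 3 and 5 with voom, 0 and 1 with library totals, 7 and 11 without a filter, 3 and 0 with the stricter filter, 2 and 0 without mitochondrially encoded genes, 19 and 3 with the covariate, 21 and 4 in 17C and 4 and 27 in 21A mice, and 0 to 2 and 0 to 4 with 1 mouse left out. The causes of these shifts were not tested. Genes that differed between the series (923) numbered 862 to 978. Depth limits the lowest members: Tgfb3 rested on 33 counts and Ltbp4 and Tgfb2 on 57 in their lowest libraries.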
